A study of Mus musculus with 8 samples.

Results

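The genes described here are the immunoglobulin kappa light chain and heavy chain genes of the mouse, followed in the brains of young-adult and aged animals. The group was picked with earlier results of these data known. Its members were set by annotation, as genes whose GENCODE type begins with IG_, pseudogenes left out, and whose symbol begins with Igk or Igh. This gave 248 of the 22430 genes in the count table, 106 at the kappa locus on chromosome 6 and 142 at the heavy chain locus on chromosome 12 (assembly GRCm39). The kappa genes comprised 1 constant gene, 5 joining (J) and 100 variable (V) segments. The heavy chain genes comprised 8 constant genes, 17 diversity (D), 4 J and 113 V segments.

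RNA was taken from brain hemispheres, titled whole brain in the labels, of 8 male C57Bl/6JRj mice, 4 at 6 months (6m) and 4 at 24 months (24m), with no treatment, transgene or allele in either group. Each library came from 1 animal, polyadenylated RNA was sequenced, and reads were counted per gene. Whether blood was flushed from the vessels before dissection was not given in the sources used here.

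An antibody is made of heavy and light chains, and the light chain is of either the kappa or the lambda kind. In a developing B cell, the recombinase joins single V, D and J segments at the heavy chain locus and single V and J segments at a light chain locus, guided by a recombination signal beside each segment, so that a clone of cells carries its own combination. The constant gene used by the heavy chain sets the antibody class, with Ighm (IgM) and Ighd (IgD) used first and the IgG, IgA and IgE genes only after class switching. B cells and the plasma cells they give rise to are rare in the brain itself and are better known from its borders, such as the meninges.

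The germline sequences of the segments that carried most of the counts are shown because a reader can see from them how alike the leading segments are. They were read from GRCm39, all 3 V segments on the minus strand, from 5′ to 3′. Igkv4-55 spans chr6:69584259-69584812, and its V exon is shown without its first 3 bases (chr6:69584259-69584558). Igkv4-70 spans chr6:69244872-69245427 (chr6:69244872-69245167 shown), and capitals mark the bases that differ from Igkv4-55 when both are aligned. Ighv1-53 spans chr12:115122023-115122455 (chr12:115122023-115122322 shown, without the first 5 bases of its V exon).
Igkv4-55: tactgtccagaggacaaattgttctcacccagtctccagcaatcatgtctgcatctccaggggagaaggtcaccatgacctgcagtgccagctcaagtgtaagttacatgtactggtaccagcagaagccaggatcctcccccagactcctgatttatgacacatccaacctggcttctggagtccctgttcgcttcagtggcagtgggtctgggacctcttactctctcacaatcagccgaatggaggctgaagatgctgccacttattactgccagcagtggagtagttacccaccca
Igkv4-70: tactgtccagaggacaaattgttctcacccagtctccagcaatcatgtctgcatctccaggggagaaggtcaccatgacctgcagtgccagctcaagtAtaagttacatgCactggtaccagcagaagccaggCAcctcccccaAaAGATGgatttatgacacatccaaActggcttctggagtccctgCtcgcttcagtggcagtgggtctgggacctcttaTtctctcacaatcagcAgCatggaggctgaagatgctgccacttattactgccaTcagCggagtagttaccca
Ighv1-53: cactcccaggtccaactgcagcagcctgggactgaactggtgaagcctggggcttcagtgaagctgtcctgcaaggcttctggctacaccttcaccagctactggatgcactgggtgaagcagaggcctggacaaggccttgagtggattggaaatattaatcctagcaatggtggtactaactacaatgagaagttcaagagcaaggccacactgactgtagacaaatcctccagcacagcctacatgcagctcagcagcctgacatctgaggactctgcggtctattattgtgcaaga

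The V exons of Igkv4-55 and Igkv4-70 were 93.1% identical, with 17 substituted bases and 4 bases of Igkv4-55 at the 3′ end that Igkv4-70 lacks. Next to the V exon lies the recombination signal, here with its heptamer and the 9 bases at the place of its nonamer in capitals, at chr6:69584231-69584258, chr6:69244844-69244871 and chr12:115121984-115122022.
Igkv4-55 signal: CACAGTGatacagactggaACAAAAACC
Igkv4-70 signal: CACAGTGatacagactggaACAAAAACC
Ighv1-53 signal: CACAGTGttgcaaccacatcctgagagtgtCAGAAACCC

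The heptamer CACAGTG, searched on the coding strand within 3 bases of the V exon, was present at 87 of 100 kappa V segments (87.0%) and at 82 of 113 heavy V segments (72.6%). Among segments with a count in any library it was present at 60 of 66 kappa (90.9%) and 41 of 47 heavy segments (87.2%), and among those with none at 27 of 34 (79.4%) and 41 of 66 (62.1%). The nonamer ACAAAAACC after a spacer of 12 bases followed the heptamer at 32 kappa V segments, and the same 9 letters after 23 bases at 2 heavy ones. These matches describe letters only.

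The J segment supplies the last part of the variable domain. The most counted J segments were Igkj5 (chr6:70700870-70700911, plus strand) and Ighj4 (chr12:113392134-113392187, minus strand). Capitals mark the codons of the conserved Phe-Gly-X-Gly or Trp-Gly-X-Gly motif, and Igkj1, Igkj2 and Igkj4 are shown beside Igkj5 because they too were well counted in a single library.
Igkj1: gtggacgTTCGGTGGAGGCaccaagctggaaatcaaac
Igkj2: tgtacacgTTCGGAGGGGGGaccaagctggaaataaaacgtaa
Igkj4: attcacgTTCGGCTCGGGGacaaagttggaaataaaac
Igkj5: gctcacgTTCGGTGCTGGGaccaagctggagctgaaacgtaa
Ighj4: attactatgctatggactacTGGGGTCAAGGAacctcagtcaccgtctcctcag

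Libraries held 63460940 to 103462414 counts, the highest in 24m replicate 1, and no pair of replicates agreed within sampling noise. The brain genes Snap25 (neurons), Mbp (oligodendrocytes) and Gfap (astrocytes) were at 391 to 968, 1758 to 2372 and 177 to 654 CPM over the 8 libraries, where CPM is the count per 1e+06 counts after scaling by trimmed mean of M values (TMM) factors. In bulk tissue, fewer cells of a type and less RNA per cell cannot be told apart.

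In a single aged brain, that of 24m replicate 1, transcripts of these genes were more abundant than in any other library. In the summed level, most of which was Ighm at 6m, the other aged brains lay between somewhat below and somewhat above the 6m level. The 248 genes summed to 82.5, 77.1, 75.5 and 80.2 CPM in 6m replicates 1 to 4, and to 1848, 102.8, 59.3 and 51.3 CPM in 24m replicates 1 to 4. In 24m replicate 1 they took 0.185% of all counts, against 0.00581 to 0.0113% in the other 24m libraries. The mean was 78.8 ± 3.12 CPM at 6m and 515 ± 889 at 24m (SD, n = 4 each), and 71.1 ± 27.7 at 24m without replicate 1 (n = 3). Replicate 1 thus stood 26.0 times above the mean of the other 24m libraries, and the age difference in the summed level rests on it. Ighm gave 70.2 of the 78.8 CPM at 6m. Without Ighm, the sum was 7.6 to 9.55 CPM at 6m and 1066, 31.5, 10.5 and 6.72 CPM in 24m replicates 1 to 4. Replicates 2 and 3 of 24m then also lay above the 6m range, and replicate 4 lay below it.

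Kappa and heavy chain genes differed in their baseline. Kappa genes summed to 80, 131, 59 and 70 counts in the 6m libraries and to 96117, 1629, 243 and 90 in the 24m libraries. Heavy chain genes summed to 5333, 5324, 4492 and 5229 counts at 6m and to 95318, 6610, 4697 and 4386 at 24m. At both loci 24m replicate 1 was highest and 24m replicate 2 next, but replicate 2 exceeded the 6m range far more at the kappa locus.

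**Figure D1:**
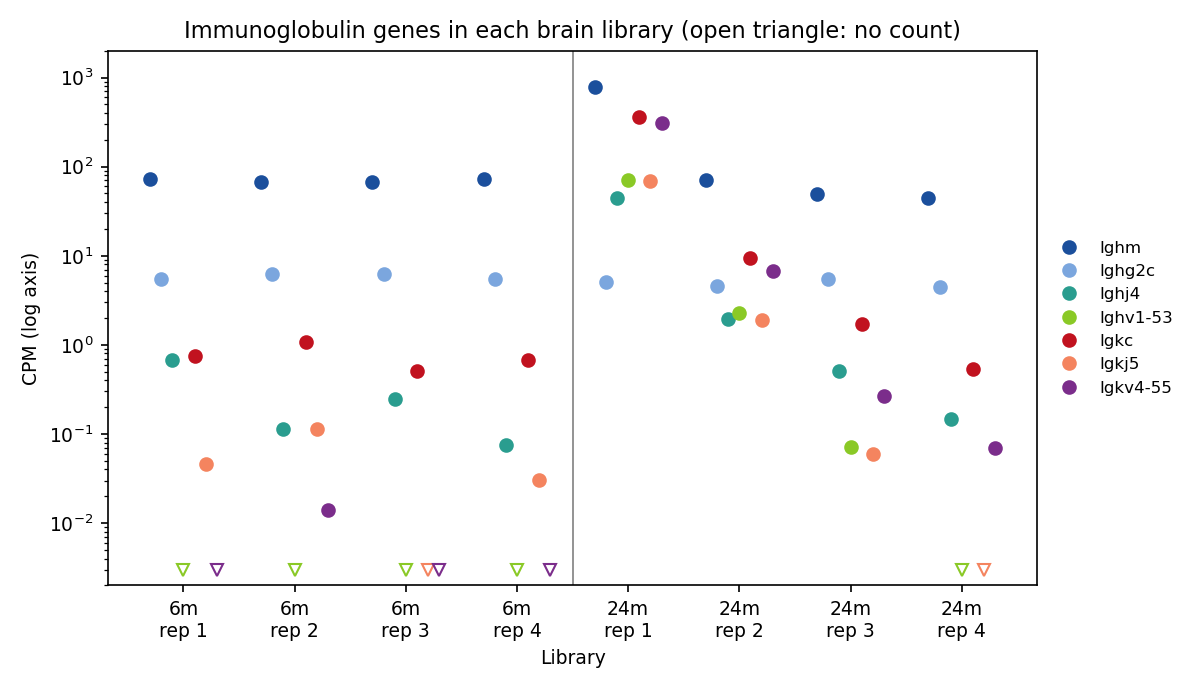
Level of 7 immunoglobulin genes in each library, as CPM on a log axis, with 6m libraries left and 24m libraries right of the line and open triangles for no count. Ighm and Ighg2c are present at like levels in all libraries but for Ighm in 24m replicate 1. Igkc, Igkv4-55, Ighv1-53, Igkj5 and Ighj4 are high in 24m replicate 1, lower in 24m replicate 2 and at 1.73 CPM or less elsewhere. Of these, Igkc and Ighj4 have counts in every library.

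Of the 248 genes, 134 had a count in at least 1 library and 114 had none. The genes without a count were 34 kappa V, 66 heavy V and 14 D segments, whereas every constant gene and every J segment had counts. The number of genes with a count was 27, 32, 27 and 26 in the 6m libraries and 114, 38, 41 and 34 in the 24m libraries. In 24m replicate 1, 106 of the 134 genes (79.1%) lay above all 4 6m libraries, compared with 37.2% of all 16730 genes tested across the table. In 24m replicates 2 to 4 this held for 28, 23 and 17 of the 134 genes (20.9, 17.2 and 12.7%), where 41.4 to 42.9% of all tested genes did so. Many of the 134 genes had no count in these 3 libraries. Conversely, 15 kappa and 25 heavy V segments had a count in 24m replicate 1 alone and so lay above 6m by selection. The tested genes passed a stricter filter than a single count, so these shares compare unlike sets. Of the 25 genes with at least 100 counts in all, 24, 16, 8 and 2 lay above every 6m library in 24m replicates 1 to 4. Some of the 25 reached 100 counts only through 24m replicate 1, such as Igkv4-57-1 with 636 counts there and 1 elsewhere. The number for replicate 1 is therefore partly set by the choice, and the share of all genes at that cut was not determined.

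Ighm, the constant gene of IgM (ENSMUSG00000076617, chr12:113382178-113386350), had the most counts of all members. It had 4825, 4780, 4042 and 4797 counts in the 6m libraries and 80948, 5713, 4062 and 3890 in the 24m libraries. In CPM this was 67.0 to 73.5 at 6m, 781 in 24m replicate 1 and 44.6 to 71.3 in the other 24m libraries, so the ages overlapped. Its log2 fold change of 1.75 ± 0.86 (SE) did not pass the test (edgeR, adjusted p = 0.100). Without 24m replicate 1 the log2 fold change was -0.33 (adjusted p = 0.0499), which is short of the fold threshold of 0.58. Over all alternatives the adjusted p of Ighm was 0.0447 to 0.598.

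Ighd, which encodes IgD and is read from the same primary transcript as Ighm in mature B cells, had 19, 12, 17 and 11 counts at 6m and 37, 21, 20 and 13 at 24m. Its CPM in 24m replicate 1 was 0.357, against 0.149 to 0.262 in the other 24m libraries. Ighd thus differed little where Ighm was highest, and the 6m range of 0.166 to 0.290 CPM overlapped that of 24m. Its log2 fold change was 0.17 ± 0.33 (adjusted p = 0.676).

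Among the switched classes, Ighg2c (IgG2c) had 356, 438, 375 and 359 counts at 6m and 526, 366, 459 and 392 at 24m. Its CPM in 24m replicate 1, 5.08, lay within the range of the other 24m libraries, 4.49 to 5.51. The log2 fold change was -0.24 ± 0.12 (adjusted p = 0.0942). Igha, which encodes IgA, the class of mucosal surfaces, had 20, 12, 8 and 14 counts at 6m and 166, 32, 21 and 12 at 24m. Igha was highest in 24m replicate 1, while 24m replicates 3 and 4 lay within the 6m range, and its log2 fold change of 1.56 ± 0.72 did not pass (adjusted p = 0.0822).

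The other IgG genes were close to the detection limit. Ighg2b had 3, 5, 2 and 8 counts at 6m and 70, 10, 6 and 5 at 24m, a log2 difference of 1.80 ± 0.87 (adjusted p = 0.0968). Ighg3 had 2, 3, 1 and 3 counts at 6m and 50, 7, 5 and 2 at 24m. Both were highest in 24m replicate 1 and overlapped between ages. Ighg1 had 0, 5, 0 and 0 counts at 6m and 5, 0, 0 and 2 at 24m. Ighe, the IgE gene, had 2, 0, 0 and 1 counts at 6m and 1, 0, 1 and 0 at 24m, so Ighg1 exceeded 3 counts in 2 libraries and Ighe in none, where 3 counts correspond to 0.0290 to 0.0498 CPM.

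As shares of the heavy constant counts, Ighm held 92.3, 91.0, 90.9 and 92.4% at 6m and 98.9, 92.9, 88.8 and 90.1% at 24m. Ighg2c held 6.81 to 8.44% at 6m, 0.643% in 24m replicate 1 (95% Wilson interval 0.591 to 0.700%) and 5.95 to 10.03% in the others. The increase in 24m replicate 1 was therefore carried by Ighm, and the class makeup of the other 24m libraries was close to that at 6m. Switched genes other than Ighg2c summed to 27, 25, 11 and 26 counts at 6m and 292, 49, 33 and 21 at 24m.

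Igkc (ENSMUSG00000076609, chr6:70703419-70703950), the only kappa constant gene, had 49, 76, 31 and 45 counts in the 6m libraries and 37436, 753, 144 and 47 in the 24m libraries. This is 0.514 to 1.08 CPM at 6m and 361, 9.40, 1.73 and 0.539 CPM in 24m replicates 1 to 4. Replicates 1 to 3 of 24m lay above every 6m library, and replicate 4 lay within the 6m range. Igkc was called higher at 24m, by 6.94 ± 1.96 on the log2 scale (adjusted p = 0.0115). It was also called without 24m replicate 1, at 2.37 (adjusted p = 0.0144, and 0.00410 to 0.228 over all alternatives). In the annotation used here, Igkc overlaps a long transcript of the same strand, Gm30211, and one of the other strand, Gm68839, and reads of these could not be told apart from those of Igkc.

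The ratio of light to heavy chain counts moved with the level. There were 1.02, 1.59, 0.767 and 0.938 Igkc counts per 100 Ighm counts in the 6m libraries. In 24m replicates 1 to 4 there were 46.3, 13.2, 3.55 and 1.21. Replicate 4 of 24m therefore lay within the 6m range and the other 3 above it. Per kilobase of exon, Igkc reached 679 CPM per kb in 24m replicate 1 against 414 for Ighm, whereas the 6m means were 1.42 and 37.2 CPM per kb.

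The lambda genes, which provide the alternative light chain and are not members, were also highest in 24m replicate 1, at a lower level. Lambda constant genes had 1, 2, 9 and 9 counts at 6m and 553, 16, 2 and 12 at 24m. Igkc made up 98.5% of light constant counts in 24m replicate 1 (interval 98.4 to 98.7%), 97.9% in replicate 2, 98.6% in replicate 3 and 79.7% in replicate 4. At 6m the share was 77.5 to 98.0% of 40 or more such counts, and the shares of the 2 ages overlapped.

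Among kappa V segments, a few members of the Igkv4 family held nearly all counts of 24m replicates 1 and 2. Kappa V segments together had 26, 34, 17 and 14 counts at 6m and 47137, 703, 69 and 30 at 24m. Igkv4-55 (ENSMUSG00000096833) had 0, 1, 0 and 0 counts at 6m and 31720, 545, 22 and 6 at 24m. All 24m libraries were above all 6m libraries, and the pooled rate was 23950 times higher at 24m, with 95% exact bounds of 4298 and 945900 for counting error alone. Leaving out 24m replicate 1 gave a ratio of 601 (107 to 23760).

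Igkv4-70 was second, with 1, 0, 2 and 0 counts at 6m and 10003, 124, 1 and 0 at 24m. Its pooled ratio was 2504 (856 to 12140), and 43.7 (14.6 to 215) without 24m replicate 1. The next segments were seen largely in 24m replicate 1. Igkv4-54 had no count at 6m and 1520, 7, 2 and 0 counts at 24m. Igkv4-68 had 1 count in 6m replicate 3 and 1250 in 24m replicate 1, and Igkv4-57-1 had 636 and 1 counts in 24m replicates 1 and 2.

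At 6m no kappa V segment stood out. The leading segments were Igkv6-20 with 6 counts in replicate 1, Igkv12-89 with 6 in replicate 2 and Igkv3-9 with 3 in replicate 4, while 5 segments tied at 2 counts in replicate 3. In 24m replicate 3 the leading segment was Igkv6-15, with 26 of 69 counts (37.7%, interval 27.2 to 49.5%). Igkv6-15 had 2, 0, 1 and 0 counts at 6m and 72, 5, 26 and 0 at 24m, and so ranked differently in replicates 1 and 3. In 24m replicate 4 Igkv4-55 led with 6 of 30 counts.

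Heavy V segments had 0, 3, 4 and 0 counts at 6m, against 7999, 200, 20 and 6 at 24m. Ighv1-53 (chr12:115122023-115122455) had no count at 6m and 7369, 184, 6 and 0 counts at 24m. Its pooled rate was at least 1869-fold higher at 24m, taking 3 counts over the 6m group, and at least 66.4-fold higher without 24m replicate 1. It made up 92.1% of heavy V counts in 24m replicate 1 (interval 91.5 to 92.7%) and 92.0% in replicate 2 (87.4 to 95.02%), so the leading share was alike at a 31.0-fold difference in its CPM. The next heavy V segments were seen almost only in 24m replicate 1. Ighv1-61 had 313 and 4 counts in replicates 1 and 2, while Ighv1-55, Ighv1-66 and Ighv2-9-1 had 69, 68 and 25 in replicate 1 and none in any other library. At 6m, Ighv1-76 led replicate 3 with 2 counts.

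**Figure D2:**
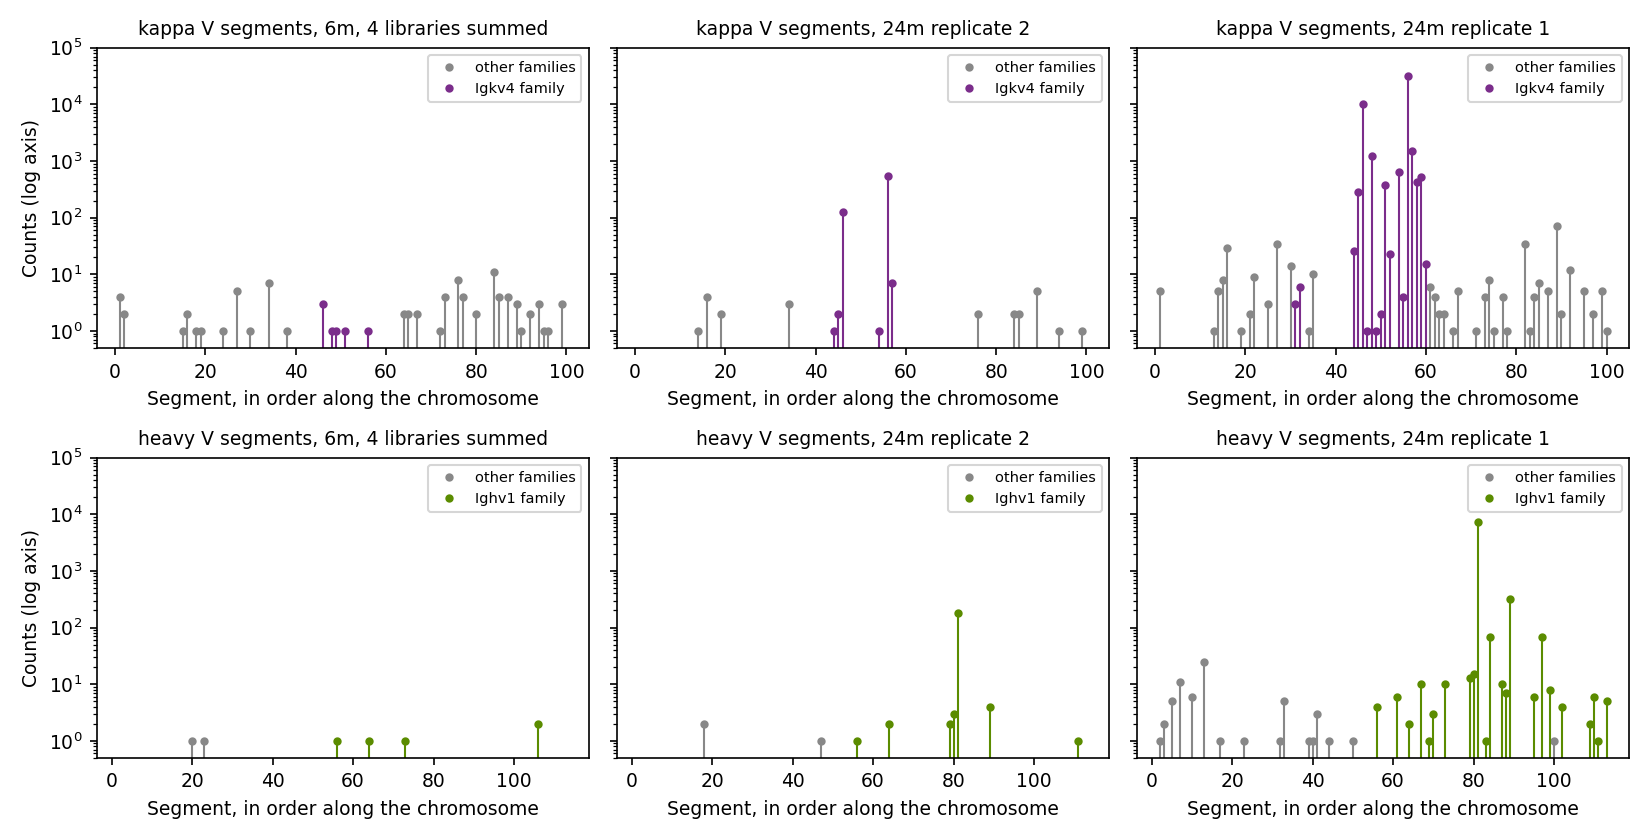
Counts of each V segment on a log axis, with segments ranked along the chromosome, kappa above and heavy below, for the 4 6m libraries summed and for 24m replicates 2 and 1. The Igkv4 family and the Ighv1 family, in colour, hold the highest counts of both 24m libraries, led by Igkv4-55 and Ighv1-53, while the 6m libraries together show scattered segments of at most 11 counts.

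The same leading V segments were therefore found in 24m replicates 1 and 2. Igkv4-55 held 67.3% of kappa V counts in replicate 1 (interval 66.9 to 67.7%) and 77.5% in replicate 2 (74.3 to 80.5%). Relative to replicate 1, the CPM of replicate 2 was 2.22% for Igkv4-55, 3.23% for Ighv1-53, 2.60% for Igkc, 2.78% for Igkj5, 4.38% for Ighj4 and 1.60% for Igkv4-70. For Igkv4-54 it was 0.595%, and Igkv4-68, Igkv4-51, Igkv4-53 and Igkv4-61, with 384 to 1250 counts in replicate 1, had none in replicate 2. Ighm, the most counted member and well counted at 6m too, stood at 9.125%, and Igkj1, with 1703 counts in replicate 1, had none in replicate 2. Several of the most counted genes thus lay between 1.60 and 4.38%, but the members kept no single proportion between these 2 libraries. Whether reads or RNA were carried from one library to the other was not tested, and counts alone do not show it.

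By family, the 26 Igkv4 segments held 99.3% of kappa V counts in 24m replicate 1 and 96.7% in replicate 2. They held 39.1% in replicate 3, 23.3% in replicate 4 and 7.69% of the 91 counts pooled over 6m. The 9 Igkv6 segments held the most at 6m, 31.9% of the pooled counts. The 53 Ighv1 segments held 99.2 and 98.5% of heavy V counts in 24m replicates 1 and 2, and 85.0% of 20 counts in replicate 3. The V counts of 24m replicates 1 and 2 were concentrated in 1 family at each locus. At the kappa locus, the Igkv6 segments led in 24m replicate 3 with 42.0% and the Igkv1 segments in replicate 4 with 30.0%, both of few counts.

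Members of a family are alike in sequence, and reads can be split between them or dropped by counting, so counts of single segments are uncertain. The V exons of the other 25 Igkv4 segments were 80.6 to 95.4% identical to Igkv4-55 (median 90.3%), whereas the 74 kappa V segments of other families were 57.0 to 69.3% identical. The 8 further Igkv4 segments with at least 100 counts in 24m replicate 1 had a median identity of 93.2% to Igkv4-55, the 9 with 1 to 99 counts 93.7% and the 8 without a count 89.2%. Igkv4-62 and Igkv4-68, at 95 and 95.4% identity, had 2 and 1250 counts there, and Igkv4-53, at 84.8%, had 422. Identity to the leading segment did not order the counts. At the heavy locus the 52 other Ighv1 segments had a median identity of 87.1% to Ighv1-53. Its closest relative, Ighv1-72 (96.1%), had 4 counts in 24m replicate 1, and Ighv1-61 (91.8%) had 313.

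In 24m replicate 1 more V segments were found, but fewer per count. Kappa V segments with a count numbered 13, 15, 12 and 12 at 6m and 55, 16, 16 and 14 at 24m. Heavy V segments with a count numbered 0, 3, 3 and 0 at 6m and 39, 9, 9 and 6 at 24m. When 21 V counts were drawn from each library with at least that many, 11.53, 13.3 and 15 segments were expected in 6m replicates 1 to 3. The same draw gave 4.93, 4.08, 10.1 and 13.9 in 24m replicates 1 to 4. At equal counts, 24m replicates 1, 2 and 3 held fewer different V segments than any 6m library drawn, replicate 3 by the least, and replicate 4 fell within their range.

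The inverse Simpson index, the number of equally used segments that would give the same evenness, was 8.05 to 10.7 for kappa V counts at 6m. It was 2.00, 1.58, 3.98 and 9.18 in 24m replicates 1 to 4. For heavy V counts it was 1.18 in both 24m replicates 1 and 2. Low counts at 6m limit this comparison, since 14 to 34 kappa V counts cannot show more segments than there are counts.

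Many V segments, of the leading and of other families, were seen in a single library. Of the 61 kappa V segments found at 24m, 15 had counts in 24m replicate 1 and in no other library, and 11 segments had counts elsewhere but not in that library. At the heavy locus, 25 segments were found in 24m replicate 1 alone and 8 only in other libraries. Across the 3 other 24m libraries, 34 kappa and 19 heavy V segments were found, compared with 34 and 6 across the 4 6m libraries.

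J segments were used unequally as well. Igkj5 had 3, 8, 0 and 2 counts at 6m and 7165, 154, 5 and 0 at 24m. It made up 62.1% of kappa J counts in 24m replicate 1 (interval 61.2 to 63.0%) and 89.0% in replicate 2 (83.5 to 92.9%). Igkj1, by contrast, had 0, 0, 7 and 6 counts at 6m and 1703, 0, 16 and 8 at 24m, and had no count in replicate 2, where 0 of 173 kappa J counts allow a share of up to 2.17%. Igkj2 had 1, 7, 3 and 0 counts at 6m and 1698, 19, 0 and 5 at 24m. Igkj4 had 1, 6, 0 and 0 counts at 6m and 973, 0, 9 and 0 at 24m. Igkj3, known as a non-functional segment, had 0, 0, 1 and 3 counts at 6m and 5, 0, 0 and 0 at 24m. Thus 24m replicate 1 used 4 kappa J segments and 24m replicate 2 mainly Igkj5.

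Igkj1 was called higher at 24m (log2 fold change 6.36 ± 2.18, adjusted p = 0.0278), but the ages overlapped and without 24m replicate 1 it was 0.94 (adjusted p = 0.437, and 0.0155 to 0.437 over all alternatives). All 5 kappa J segments overlap Gm30211 in the annotation.

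Ighj4 had 44, 8, 15 and 5 counts at 6m and 4604, 156, 42 and 13 at 24m. It was called higher at 24m (log2 fold change 5.41 ± 1.71, adjusted p = 0.0194) and was not called without 24m replicate 1 (1.65, adjusted p = 0.0907, and 0.00725 to 0.231 over all alternatives). Ighj1 had 61, 56, 28 and 30 counts at 6m and 583, 99, 53 and 47 at 24m, a log2 difference of 1.61 ± 0.72 (adjusted p = 0.0748). At 6m Ighj1 was the main heavy J segment, with 57.5 to 84.8% of counts, while Ighj4 held 83.5% in 24m replicate 1 and 59.8% in replicate 2. Ighj2 had 1, 2, 0 and 1 counts at 6m and 251, 3, 3 and 3 at 24m, and Ighj3 had none at 6m and 74, 3, 4 and 1 at 24m. The order of the heavy J segments therefore differed between 6m and these 2 aged libraries.

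D segments are of 10 to 29 bases, and 3 of 17 had any count, none at 6m. Ighd1-1 and Ighd3-2 had 2 counts each in 24m replicate 1, and Ighd4-1 had 1 in 24m replicate 3. Reads over joined segments cover parts of several genes, and how such reads were counted was not given in the sources used here, which affects J and D segments most.

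**Figure D3:**
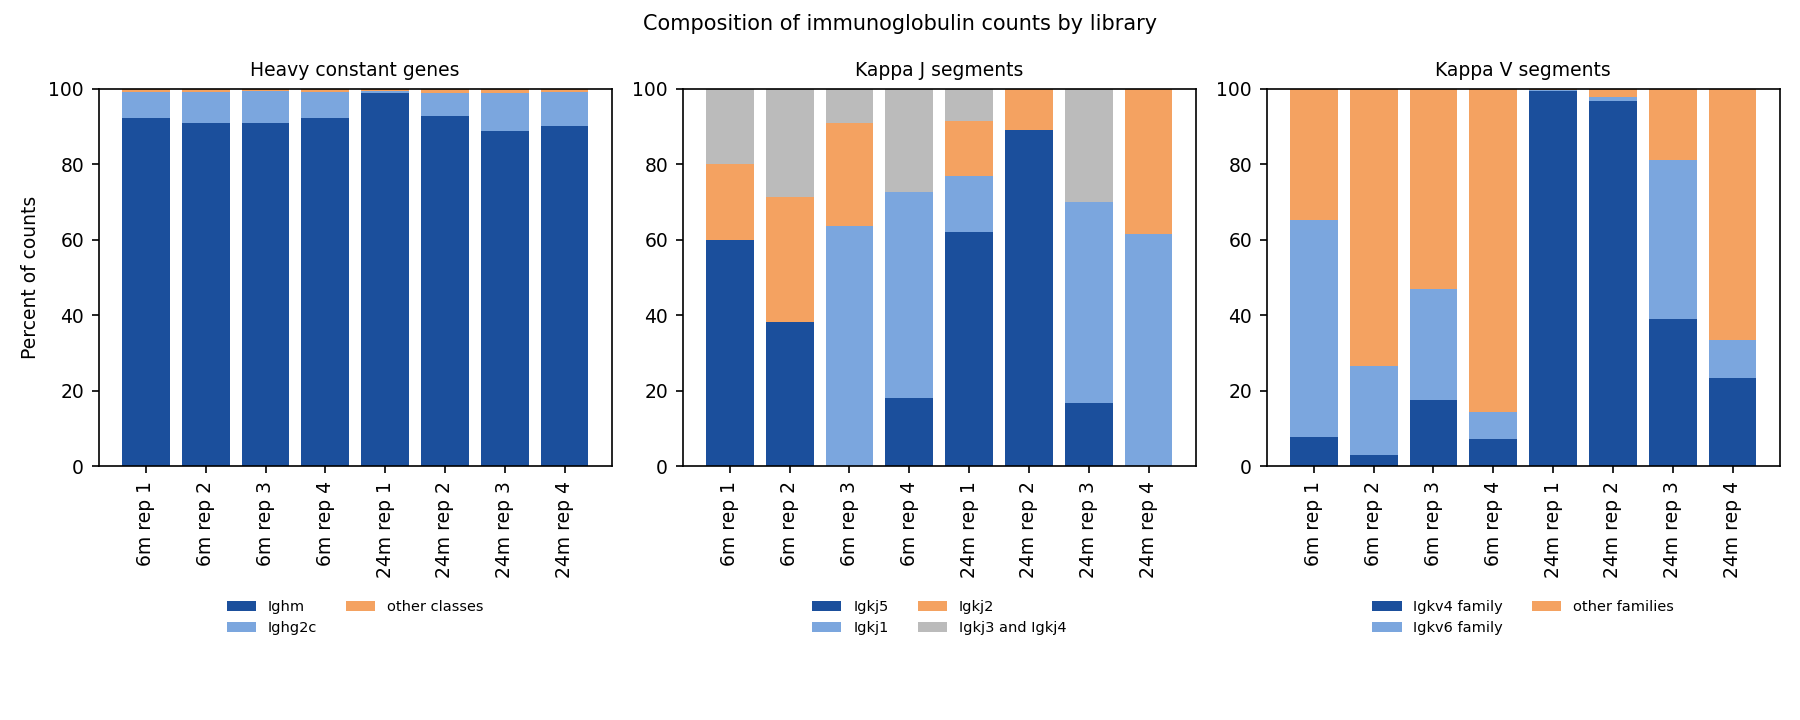
Share of heavy constant, kappa J and kappa V counts taken by the named genes or families in each library, as stacked percentages. Ighm holds 88.8% or more of heavy constant counts in every library, and the Igkv4 family holds 7.69% of pooled 6m kappa V counts and 99.3 and 96.7% in 24m replicates 1 and 2, while kappa J bars of several libraries rest on 5 to 30 counts.

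Age groups were compared over the 16730 genes that exceeded 5 counts in 4 or more libraries. Only 10 of the 248 members passed this filter. Of these, 4 were called higher at 24m (Igkv4-55, Igkc, Ighj4 and Igkj1) and 0 lower, at an adjusted p of at most 0.05 and an absolute log2 fold change of at least 0.58. Among all tested genes, 43.6% were called, 25.3% higher and 18.3% lower. In 1 of the 10, Igkv4-55, all 24m libraries lay above all 6m libraries, and in 0 below, compared with 28.4% and 26.8% of all tested genes. The members that passed are a selected part of the 248, so these counts are given as a description.

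Igkv4-55 had the largest fitted log2 fold change of the 10, 13.82 ± 3.63 (adjusted p = 0.00808, and 0.000124 to 0.157 over its alternatives). It had more than 5 counts in no 6m library and in all 4 24m libraries, so that it entered the test only through the age at which it was higher. The 6 members tested and not called were Ighm, Ighd, Ighg2b, Ighg2c, Igha and Ighj1. Without 24m replicate 1, 8 members were tested and Igkc alone was called, and Igkv4-55 was no longer tested. Over all genes, 8265 of 16592 were called in either direction without that library. With each other library left out, Igkc was always called. Igkv4-55 was tested only when a 6m library was left out, because it passed the filter through the 4 24m libraries. It was then called, but with at most 1 count in any 6m library these omissions could hardly alter its call. Ighj4 was not called without 6m replicate 2 or 6m replicate 4, and Igkj1 without any 1 of the 6m libraries. Without 24m replicate 4, 7 members were called, adding Ighm, Igha, Ighg2b and Ighj1, and Ighj1 was also called without 24m replicate 3. Over all genes, 6440 of 16615 were called without 24m replicate 4.

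With a filter of more than 5 counts in a single library, 59 members were tested and 13 called higher, among them Ighv1-53, Igkv4-70, Igkj5, Igkj2 and Igkj4. Over all genes, 7329 of 17541 were called in either direction under this filter. Members could pass it through 24m replicate 1 alone, as Igkv4-68 did with 1250 counts there, so these calls are a description. DESeq2 gave no adjusted p for Igkv4-55, Igkc, Ighj4, Igkj1 and Ighm and called Igha of the other 5. The moderated test of limma-voom called 0 of the 10, with 0 at an unadjusted p under 0.05, compared with 5 at that level by edgeR and 4 by DESeq2. Over all genes, DESeq2 called 7287 and limma-voom 7232 of 16730 in either direction.

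Genes of antibody-producing cells were examined beside the members as 12 lists of other genes. In each list, members tested and called are given with the median log2 fold change, where the median of all tested genes was -0.00337. Over all lists, 23 genes were called higher and 26 lower of 105 tested. Among all tested genes, 25.3% were called higher and 18.3% lower. The counts of each list below are a description to be read beside these shares.

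Of the 15 genes of B cell identity, 10 were tested, 2 were higher and 0 lower at 24m (median 0.26). Ms4a1 (CD20) had 2, 0, 0 and 0 counts at 6m and 17, 2, 0 and 0 at 24m, too few to be tested. Cd79a, which signals for the B cell receptor, had 73, 57, 59 and 52 counts at 6m and 344, 40, 30 and 24 at 24m. In both, 24m replicate 1 was highest and the other aged libraries were not above 6m. The called genes, Cd22 (2.54 ± 0.36, adjusted p = 0.000352) and Fcer2a (1.20 ± 0.30, adjusted p = 0.00599), were above 6m in all 24m libraries. Cd22 is also known from microglia.

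Of 16 genes of plasma cells and antibody secretion, 15 were tested, with 4 higher and 6 lower (median 0.35). Jchain, which links IgM and IgA units, had 7, 1, 4 and 13 counts at 6m and 436, 26, 10 and 6 at 24m, and was called (3.63 ± 1.34, adjusted p = 0.0381). Mzb1, a chaperone of IgM assembly, had 17, 13, 14 and 17 counts at 6m and 636, 8, 11 and 6 at 24m and did not pass (2.80 ± 1.35, adjusted p = 0.0940). Xbp1, which drives secretory capacity in many cells, was near even (-0.03 ± 0.12, adjusted p = 0.810). The other 3 called higher were Irf4, Slamf7 and Tnfrsf13b. The 6 called lower were Tnfrsf17 (-0.95 ± 0.21), Fkbp11, Creld2, Derl3, Eaf2 and Sec11c, of which most belong to general secretion. Jchain lay above every 6m library in 24m replicates 1 and 2, and Mzb1 in replicate 1 alone.

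The recombination and class switching list had 7 of 9 genes in the table, with 3 tested and 0 called by edgeR (median -0.07). Rag1 had 3, 4, 0 and 0 counts at 6m and 7, 13, 1 and 15 at 24m. Rag2, its partner in the recombinase, had 2 counts in 6m replicate 2 and 2 in 24m replicate 4. Dntt, which adds bases at the joins, had 5 to 10 counts at 6m and 19, 4, 9 and 14 at 24m (0.26 ± 0.41, adjusted p = 0.596). Rag1, Rag2 and Dntt did not follow the order of the immunoglobulin counts.

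No gene of the 10 in the lambda list was tested. Iglc1, Iglc2 and Iglc3, the lambda constant genes, had 207, 236 and 108 counts in 24m replicate 1 and at most 9 in any other library.

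Of the Fc and polymeric immunoglobulin receptors, 8 of 10 genes were tested, with 3 higher and 1 lower (median 0.30). Fcgr2b (1.09 ± 0.16, adjusted p = 0.000426), Fcgr4 (1.64 ± 0.53, adjusted p = 0.0210) and Trim21, a cytosolic antibody receptor, were higher. Fcgrt, the neonatal Fc receptor that carries IgG across barriers, was lower (-0.84 ± 0.17, adjusted p = 0.00233). Pigr, which carries IgA and IgM across epithelia, had 0 to 4 counts, and Fcgr1 (0.46 ± 0.18, adjusted p = 0.0443) and Fcgr3 (0.13 ± 0.14, adjusted p = 0.410) were not called. The Fc receptors called higher were above 6m in all 24m libraries, unlike most immunoglobulin genes.

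Of the B cell chemokines, survival factors and receptors, 14 of 20 were tested, with 2 higher and 3 lower (median 0.42). Cxcl10 (2.33 ± 0.38, adjusted p = 0.000672) and Itga4 (1.49 ± 0.30, adjusted p = 0.00193) were higher. Tnfsf13, the survival factor APRIL, and the chemokines Ccl19 and Ccl21a were lower (-0.71 ± 0.15, -1.25 ± 0.44 and -0.82 ± 0.30). Cxcl13, which attracts B cells, had 1 to 4 counts at 6m and 53, 10, 4 and 1 at 24m, Cxcr5, its receptor, 19 in 24m replicate 1 and at most 3 elsewhere, and Cxcl12 was at 0.28 ± 0.14 (adjusted p = 0.110).

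Genes of other cells moved with 24m replicate 1 as well. Of the T and NK cell list, 12 of 19 genes were tested, with 4 higher and 2 lower (median 0.71). Cd3d had 2, 2, 9 and 2 counts at 6m and 80, 3, 12 and 1 at 24m, Cd3g 78 in 24m replicate 1 and at most 7 elsewhere, and Cd3e 45 and at most 11. Ccl5 (2.05 ± 0.74, adjusted p = 0.0333), Cd8b1, Nkg7 and Cd4 were called higher, and Trac and Trbc2 lower. The highest summed level was in 24m replicate 1, at 49.4 CPM, against 40.7 to 44.0 at 6m and 25.8 to 31.3 in the other 24m libraries. In 24m replicate 1, 14 of 19 genes were highest of all libraries, compared with 10.55% of all tested genes.

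Red blood cell genes were lower at 24m, with 0 of 6 tested higher and 5 lower (median -1.42), namely Hba-a1, Hba-a2 and Hbb-bs (-1.42 ± 0.30, -1.41 ± 0.29 and -1.52 ± 0.33), Hbb-bt and Alas2. Their summed level was 5426 to 7605 CPM at 6m, 4157 in 24m replicate 1 and 1243 to 2123 in the other 24m libraries. Neutrophil and monocyte genes were also lower, with 0 of 9 higher and 5 lower (median -1.17). S100a9 (-1.40 ± 0.50, adjusted p = 0.0327), Camp, Retnlg, Mpo and Ly6c2 were called, while S100a8 (-1.17 ± 0.57, adjusted p = 0.0997) and Ngp (-0.66 ± 0.70, adjusted p = 0.429) were not. The summed levels of both lists were thus higher in 24m replicate 1 than in the other aged brains, and the summed red cell level of that library was below the 6m range. Its summed neutrophil and monocyte level, 9.546 CPM, lay within the 6m range of 5.544 to 13.97. Slc4a1, a red cell gene that was not called, had 72 counts (0.695 CPM) there, 28 to 34 in the other 24m libraries and 16 to 27 at 6m (mean 0.338 CPM). Their part in the immunoglobulin result was not tested.

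Border macrophage genes had 2 of 8 higher and 2 lower (median -0.18), with Cd163 (0.70 ± 0.21) and Ms4a7 higher, Pf4 and Cbr2 lower, Mrc1 at 0.42 ± 0.24 (adjusted p = 0.148) and Lyve1 at -0.71 ± 0.33 (adjusted p = 0.0879). Meningeal fibroblast genes had 3 of 11 higher (Igf2, Fmod and Cyp1b1) and 1 lower (Crabp2, median 0.09), and Dcn, Lum and Col1a1 were not called (-0.14 ± 0.12, 0.09 ± 0.24 and -0.14 ± 0.12). Choroid plexus genes had 3 of 9 higher (Clic6, Kl and Aqp1) and 1 lower (Prlr, median -0.26), while Ttr (-0.79 ± 0.33, adjusted p = 0.0598) and Folr1 (-0.85 ± 0.34, adjusted p = 0.0524) were not called.

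The summed level of the lists gives a measure of how far 24m replicate 1 stood apart. Over the mean of 24m replicates 2 to 4, it was 34.3 times for the lambda genes, 1.90 times for B cell identity, 1.27 for plasma cell genes, 1.68 for T and NK cells, 2.33 for red blood cells, 2.55 for neutrophils and monocytes, 1.89 for choroid plexus, 1.40 for border macrophages and 1.08 for meningeal fibroblasts. For the Fc receptors it was 1.496, for the chemokine list 1.33 and for the recombination list 0.865. These sums are set largely by the most abundant genes of a list. In 24m replicate 1, Xbp1 gave 149.1 of the 313.5 CPM of the plasma cell list and Cd37 13.11 of the 33.19 CPM of the B cell list. Taken gene by gene, the median ratio was 2.348 for B cell identity, 1.415 for plasma cell genes and 3.282 for T and NK cells. The median over all tested genes was 0.993, and 2.74% of them were above 2 times. Genes within the B cell and plasma cell lists differed widely, and 10 of 15 and 8 of 16 were highest in 24m replicate 1 of all libraries. Among all tested genes, 10.55% were highest in that library, though the lists also hold genes too low to be tested. Mzb1 stood at 61.3 times the mean of the other 24m libraries, Jchain at 24.6, Ms4a1 at 19.7 and Cd79a at 8.78, whereas Pax5 stood at 1.52, Sdc1 at 1.49, Xbp1 at 1.34, Tnfrsf17 at 1.23, Prdm1 at 0.972, Cr2 at 0.936 and Fcer2a at 0.756. The summed immunoglobulin kappa and heavy chain genes stood 26.0 times higher, and without Ighm 65.6 times.

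**Figure D4:**
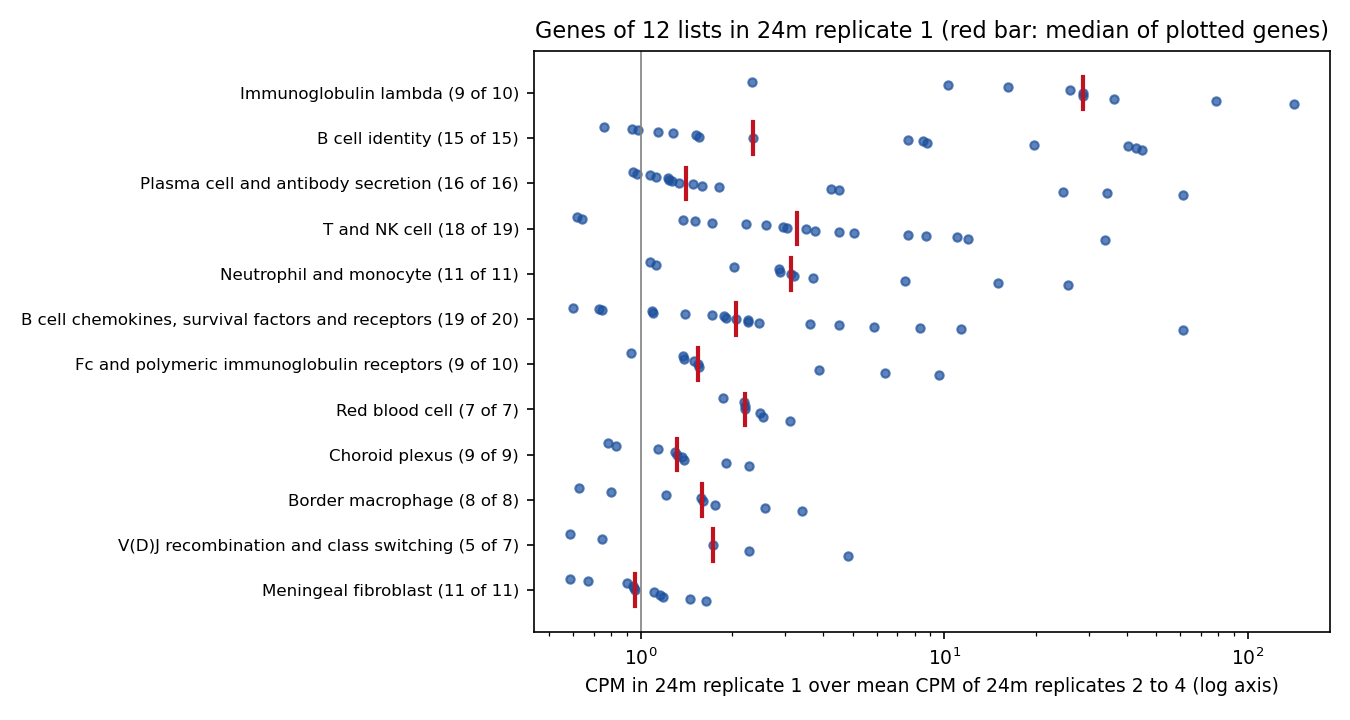
Level of each list gene in 24m replicate 1 over its mean in 24m replicates 2 to 4, on a log axis, with genes of no count in either left out and the median as a red bar. The lambda genes have a median of 28.6 times and the B cell, T cell and myeloid lists spread from near 1 to over 20 times, while the meningeal fibroblast genes have a median of 0.957.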

How the data were processed

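Poly(A) RNA of 8 mouse brains was sequenced. As the submitters' processing notes and methods state, the authors trimmed reads with Trim Galore 0.4.11, aligned them to GRCm39 with HISAT2 2.1.0 and counted them per Ensembl gene with featureCounts. The deposited counts are whole numbers per gene and library, from before the filtering and normalization that the authors applied later. The treatment of strand, of multimapping reads and of reads over several genes is not given in the sources used here. Of 22430 genes, 22281 matched GENCODE and 149 did not. GENCODE M39, used here for types, positions and lengths, is later than the release of the authors.

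Ages were compared with the edgeR 4.0.16 quasi-likelihood test (R 4.3.3, TMM factors, age as the only term) over the 16730 genes exceeding 5 counts in 4 or more of 8 libraries. Calls needed p of at most 0.05 after Benjamini-Hochberg adjustment and an absolute log2 fold change of at least 0.58, the thresholds of the study. Adjusted p-values are from this test unless another is named. When the 24m against 6m comparison was tested on simulated data (16730 genes, 200 changed by a log2 value of 1), 75.5% of changed genes and 5 unchanged genes were called. Shares carry 95% Wilson intervals, which cover counting error only, as does a floor of 3 counts.

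Constant genes, J segments with counts, the 5 V segments of highest total per locus, the leading V segment of each library, called V segments, and of each list the called and first 3 genes were to be named. D segments and other V segments were named after their values were seen. A few genes that this rule or the lists would name are not reported here. The members and lists were chosen with earlier results of these data known. Alternatives were DESeq2 1.42.0, limma-voom 3.58.1, other scaling, filters, each library left out and the replicate number as a block. Same-numbered libraries of the 2 ages did not deviate together (correlations -0.348 to 0.271), so the numbers were not used as pairs.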

Additional observations from a re-analysis of the deposited data

Results flagged for a closer look

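In each of 26 groups of 4 libraries of an age, out of 60 examined, 24m replicate 1 lay so far above the other 3 that the gap took more than 0.829 of the range of the group (the 95% critical value of Dixon's test for 4 samples). Single genes were examined only if they had at least 100 counts over all libraries, and some reached this through 24m replicate 1 alone. Igkv4-51, for instance, had all its 531 counts there. For such genes the flag was set by the choice, so the chance rate of about 1 group in 20 does not apply. The genes concerned were read from the same library and are not independent of each other.

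The constant genes were Ighm, at 781.3 CPM in 24m replicate 1 against at most 71.3 in the other 24m libraries, Igkc, at 361.3 against at most 9.397, and Ighg2b, at 0.6756 against at most 0.1248. For the summed kappa genes the level was 927.7 CPM against at most 20.33, and for the summed heavy chain genes 920.0 CPM against at most 82.49.

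The kappa V segments were Igkv4-55 at 306.2 CPM, Igkv4-70 at 96.55, Igkv4-54 at 14.67, Igkv4-68 at 12.07, Igkv4-57-1 at 6.139, Igkv4-51 at 5.125, Igkv4-53 at 4.073, Igkv4-61 at 3.706 and Igkv4-71 at 2.693. The heavy V segments were Ighv1-53 at 71.13 CPM and Ighv1-61 at 3.021. In the other 24m libraries the highest of these was Igkv4-55 at 6.801 CPM in replicate 2.

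The J segments were Igkj5 at 69.16 CPM, Ighj4 at 44.44, Igkj1 at 16.44, Igkj2 at 16.39, Igkj4 at 9.391, Ighj1 at 5.627 and Ighj2 at 2.423. Of the other lists, the summed level stood apart for B cell identity (33.19 CPM against 16.19 to 18.45), the lambda genes (8.368 against at most 0.3744) and neutrophil and monocyte genes (9.546 against 3.307 to 4.13). The neutrophil and monocyte level lay within the 6m range of 5.544 to 13.97 CPM. Plac8 alone stood at 3.166 CPM in 24m replicate 1, against 0.1123 to 0.1376 in the other 24m libraries.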

How the results depend on the processing

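The number of members called higher, 4 as reported, was also 4 with other scaling factors, with library totals and with adjusted p alone. It was 14 of 134 tested with genes of a count in any library, 13 of 59 with more than 5 counts in 1 library, and 2 of 7 with the filterByExpr rule. Over all genes, 7342 of 19553, 7329 of 17541 and 7181 of 16243 were called in either direction under these filters. The first 2 filters admit members through 24m replicate 1 alone. DESeq2 called 1 of the 5 members to which it gave an adjusted p, and limma-voom called 0. Over all genes, DESeq2 called 7287 and limma-voom 7232 of 16730. With each library left out in turn the number was 1 to 7, the lowest without 24m replicate 1 and the highest without 24m replicate 4, and it was 2 without 6m replicate 2 and 2 without 6m replicate 4. Over all genes, 6440 (without 24m replicate 4) to 8265 (without 24m replicate 1) were called with a library left out. No member was called lower under any of these settings. Without 24m replicate 1 the log2 fold changes of Ighm and Ighd changed sign. With each library left out in turn, the log2 value ran from -0.33 (without 24m replicate 1) to 2.10 (without 24m replicate 4) for Ighm and from -0.041 to 0.35 for Ighd. With the replicate block, 2 members were called, Igkv4-55 and Ighj4, and 7242 of 16730 genes over all. The cause of these shifts was not tested, apart from the number of genes and libraries that a filter or an omission leaves.

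Of the other lists, 26 of 105 tested genes were called lower as reported, where 18.3% of all tested genes were. The number was 15 with library totals, a scaling under which the median log2 value over tested genes was 0.21 in place of -0.00337. The summed level at 6m, 78.8 CPM, was 73.1 with library totals and 83.9 with mitochondrially encoded genes left out of the totals. The mean number of V segments found at 6m, 14.5, was 1.75 when 3 counts were required, and at 24m it was 41.0, 20.3 at 3 counts and 23.3 without replicate 1. Depth limits the V and kappa J comparisons at 6m, where single segments have 0 to 8 counts.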
